A study of Homo sapiens with 12 samples.

Results

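The question of these comparisons was whether FLCN knockdown changed the same genes, by the same amount, in HK2 cells kept in culture for a short and for a long time. All 12 libraries of the 12 in the series were used, in 4 groups of 3 biological replicates. HK2 (HK-2) is an immortalized human line that derives from the proximal tubule of the kidney. All cells carried a short hairpin RNA (shRNA). The groups were short-term nontarget cells (shControl, fewer than 30 passages, genotype labelled WT), short-term FLCN knockdown cells (shRNA FLCN, fewer than 30 passages), long-term nontarget cells (shControl, more than 120 passages) and long-term FLCN knockdown cells (shRNA FLCN, more than 120 passages). These passage numbers are those of the sample labels, and the methods of the study state a lower minimum for long-term culture, counted after clonal selection. The stable lines were clones, and which clone gave which library is not stated in the sources used here, so the shRNA, the clone that carried it and, at the later time, what that clone had acquired in culture cannot be told apart. The interaction of a gene is its long-term knockdown effect (long-term knockdown minus long-term nontarget) minus its short-term knockdown effect (short-term knockdown minus short-term nontarget), on the log2 scale. It equals the difference between the changes over culture time with and without knockdown. A gene was called when the interaction was at least 2.5-fold in size and its adjusted p, from the quasi-likelihood test of edgeR, was under 0.05.

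FLCN encodes folliculin, the tumor suppressor that is mutated in Birt-Hogg-Dubé syndrome, whose carriers develop kidney tumors, lung cysts and skin growths. With its partners FNIP1 and FNIP2 it acts at the lysosome on the Rag GTPases, which pass on amino acid levels to mTORC1, and it thereby controls whether the transcription factors TFEB and TFE3 stay in the cytoplasm or enter the nucleus, where they turn on genes of lysosomes. An interaction asks a different question from either knockdown comparison: a gene that moved equally at both times has none, however large the change.

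Totals per library were 5825779 to 8991051 counts, and the ranges of the 4 groups overlapped. In every group replicate 3 differed more from replicates 1 and 2 than these did from each other. The chi-square per degree of freedom between libraries was 2.15 to 5.28 for replicates 1 and 2 and 4.35 to 13 for the pairs with replicate 3. With replicates 1 and 2 alone, a fit chosen after seeing the data, 739 genes were called for the interaction in place of 759, and 632 were called in both. FLCN had 12.7, 16.7 and 16.5 CPM in short-term nontarget, 5.95, 6.58 and 5.66 in short-term knockdown, 9.92, 11.9 and 12.2 in long-term nontarget and 6.7, 6.31 and 7.97 in long-term knockdown libraries. Its level was lower in the knockdown libraries at both times, by a log2 difference of −1.33 short-term and −0.70 long-term. Its own interaction did not pass the test (log2 interaction 0.63, SE 0.254, adjusted p = 0.118), and the knockdown was therefore not shown to differ in depth between the times. Equal depth was not shown either, and the fitted long-term effect was the smaller in size. Of the 35 markers of proximal tubule, 17 had enough counts to be tested and 8 had 0 counts in all 12 libraries, among them LRP2, the endocytic receptor megalin that defines the mature tubule.

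Of 13959 genes tested, 759 were called (5.44%), 184 with a higher knockdown effect at the long-term time (1.32%) and 575 with a lower one (4.12%). With no limit on fold size 1872 genes passed (13.4%), 695 higher and 1177 lower. An unadjusted p below 0.05 was found for 3704 (26.5%). At the same limits the short-term knockdown effect was called in 1.79% and the long-term effect in 6.61% of the genes. Among the 759 genes, the long-term effect was past the limits in 538, the short-term effect in 92, both in 45 and neither in 174. For these 174 genes the 2 effects were each under the limits and their difference was not.

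A gene was said to have 1 departing group when the highest or lowest of the 4 group means on the log2 CPM scale (CPM, reads of the gene scaled to a common library total with TMM factors) was farther from its neighbour than the other 3 means were from each other. One group departed alone in 577 of the 759 genes (76.0%). That group was long-term knockdown in 455 genes (59.9%), long-term nontarget in 67 (8.83%), short-term knockdown in 39 (5.14%) and short-term nontarget in 16 (2.11%). In the other 182 genes (24.0%) no group departed alone, and in 73 of them both knockdown effects passed the test with opposite signs. Because the class is read from the values that also made the call, it is a description and carries no test. Positions of genes are given on GRCh38, from GENCODE release 29, and span the whole gene.

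In 377 genes the long-term knockdown cells lay alone below the other groups, and all had a lower interaction. That shape was found in 13.6% of all genes tested, called or not. The median short-term effect of the 377 was 0.09 and the median long-term effect −2.44 on the log2 scale. Their median change over culture time was 0.12 in nontarget and −2.35 in knockdown cells, and in 309 of the 377 both the long-term effect and the change over time with knockdown passed the limits. In 356 of the 377, the 3 long-term knockdown libraries were all below the 9 others, against 10.7% of all genes tested. The 3 libraries had no count in 12 of these genes and 1 to 3 counts in all in another 49.

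CCND1 (chromosome 11, 69641087 to 69654474, plus strand), the D-type cyclin that activates CDK4 and CDK6 in G1, had 112, 124 and 117 CPM in short-term nontarget, 171, 171 and 197 in short-term knockdown, 134, 161 and 141 in long-term nontarget and 3.24, 3.67 and 3.56 in long-term knockdown libraries. The 9 other libraries stayed between 112 and 197 CPM and the 3 long-term knockdown libraries were below 4 (log2 interaction −5.99, SE 0.174, adjusted p = 4.20e-13). The short-term effect had the opposite sign, 0.61 (SE 0.0997, adjusted p = 6.18e-04). CLSTN2 (chromosome 3, 139935185 to 140577397, plus strand), which encodes calsyntenin, a synaptic member of the cadherin superfamily, had 44.6, 38.3 and 59.2 CPM in short-term nontarget, 54, 60.2 and 55.9 in short-term knockdown, 257, 232 and 257 in long-term nontarget and 0.231, 0.44 and 0.678 in long-term knockdown libraries. Here a second group also stood off: long-term nontarget cells were above both short-term groups, and long-term knockdown cells were at or below 0.678 CPM (log2 interaction −9.40, SE 0.295, adjusted p = 7.33e-13).

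ACTC1, the cardiac form of alpha-actin, had 7.79, 8.05 and 10.2 CPM in short-term nontarget, 11.4, 11.4 and 25.8 in short-term knockdown, 7.5, 8.67 and 9.32 in long-term nontarget and 0, 0 and 0 in long-term knockdown libraries. None of the 3 long-term knockdown libraries had a read (log2 interaction −9.77, SE 0.951, adjusted p = 6.99e-06), so the fitted value depends on the prior count. Over summed counts the long-term nontarget level was at least 60.5-fold higher than a floor of 3 counts in the long-term knockdown group, and the short-term knockdown level at least 110-fold. Reads that ACTC1 shares with other actin genes may have been dropped or split by the counting. NPPB (chromosome 1, 11857464 to 11858931, minus strand), the natriuretic peptide B precursor, had 4.37, 1.82 and 3.61 CPM in short-term nontarget, 12.8, 9.8 and 21.4 in short-term knockdown, 13.1, 9.14 and 13.2 in long-term nontarget and 0, 0 and 0.17 in long-term knockdown libraries (log2 interaction −9.65, SE 0.743, adjusted p = 1.39e-07). Its long-term knockdown group held 1 count, which gives a long-term nontarget level 256 times as high (95% counting interval 45.5 to 10100). Without long-term knockdown replicate 3, which held that count, the log2 interaction was −11.52.

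NRXN3 (chromosome 14, 78170373 to 79868290, plus strand), a presynaptic adhesion protein, had 15, 11.4 and 14 CPM in short-term nontarget, 12.2, 11.7 and 12.9 in short-term knockdown, 14.2, 9.91 and 14.4 in long-term nontarget and 0, 0 and 0.17 in long-term knockdown libraries (log2 interaction −7.50, SE 0.549, adjusted p = 5.10e-08). Again 1 count in replicate 3 made up the long-term knockdown group, and without that library the log2 interaction was −9.37. KCNJ15, an inward rectifier potassium channel, had 17.8, 15.9 and 18.9 CPM in short-term nontarget, 19.6, 17.1 and 17.3 in short-term knockdown, 3.35, 2.79 and 1.81 in long-term nontarget and 0, 0 and 0 in long-term knockdown libraries (log2 interaction −7.25, SE 0.797, adjusted p = 1.47e-05). The short-term groups overlapped, long-term nontarget cells were lower than both, and long-term knockdown cells had 0 counts, which puts the long-term nontarget level at least 18.7-fold higher. FAM110B (chromosome 8, 57994509 to 58204279, plus strand) had 17.1, 14.6 and 14.6 CPM in short-term nontarget, 19.2, 15.9 and 17.7 in short-term knockdown, 21.7, 27.6 and 29.4 in long-term nontarget and 0.231, 0 and 0.339 in long-term knockdown libraries (log2 interaction −7.19, SE 0.402, adjusted p = 3.22e-09). The long-term nontarget libraries were above both short-term groups, and 1 long-term knockdown library had no read.

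In 78 genes the long-term knockdown cells lay alone above the others, a shape found in 13.2% of all genes tested. Their median effect was −0.16 short-term and 2.16 long-term, and their median change over time −0.32 in nontarget and 1.86 in knockdown cells. The 3 long-term knockdown libraries were all above the 9 others in 76 of the 78 genes, against 8.75% of all genes tested. Long-term knockdown thus departed downward in 377 and upward in 78 of the called genes, while the 2 shapes were about equally common among all genes tested.

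EDIL3 (chromosome 5, 83940554 to 84384793, minus strand), a secreted ligand of integrins with EGF-like and discoidin domains, had 5.74, 4.71 and 2.98 CPM in short-term nontarget, 8.73, 11 and 5.13 in short-term knockdown, 4.69, 1.86 and 2.72 in long-term nontarget and 200.2, 176 and 178 in long-term knockdown libraries. The 9 other libraries were at or below 11 CPM and the long-term knockdown libraries at or above 176 (log2 interaction 4.99, SE 0.414, adjusted p = 6.54e-07). FHDC1 (chromosome 4, 152936352 to 152979696, plus strand), a formin that binds actin and microtubules, had 1.91, 1.97 and 4.24 CPM in short-term nontarget, 3.8, 4.39 and 9.2 in short-term knockdown, 0.134, 0.465 and 1.03 in long-term nontarget and 44.4, 46.5 and 51.4 in long-term knockdown libraries (log2 interaction 5.31, SE 0.633, adjusted p = 2.41e-05). Long-term nontarget cells were the lowest. Without long-term nontarget replicate 3 its log2 interaction was 6.21. ADAM12 (chromosome 10, 126012381 to 126388455, minus strand), a membrane metalloprotease, had 4.92, 3.04 and 5.03 CPM in short-term nontarget, 2.78, 1.9 and 4.96 in short-term knockdown, 2.68, 1.39 and 0.388 in long-term nontarget and 30.6, 34.8 and 34.6 in long-term knockdown libraries (log2 interaction 4.95, SE 0.533, adjusted p = 8.06e-06). Without long-term nontarget replicate 1 it was 5.73.

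ADGRL2 (chromosome 1, 81306160 to 81992436, plus strand), an adhesion G protein-coupled receptor of the latrophilin family, had 13.3, 14.6 and 22.8 CPM in short-term nontarget, 19, 20.03 and 21.4 in short-term knockdown, 12.6, 11.3 and 13.2 in long-term nontarget and 186, 169 and 152 in long-term knockdown libraries (log2 interaction 3.51, SE 0.235, adjusted p = 2.23e-08). The other 9 libraries were at or below 22.8. CYP1B1 (chromosome 2, 38066973 to 38109902, minus strand), a cytochrome P450 that oxidizes estrogens and polycyclic hydrocarbons, had 15.2, 16.1 and 14.6 CPM in short-term nontarget, 6.71, 8.04 and 6.37 in short-term knockdown, 9.65, 8.36 and 5.69 in long-term nontarget and 41.8, 48.6 and 27 in long-term knockdown libraries. In this gene the short-term effect was downward, −1.11 (SE 0.231, adjusted p = 0.00411), and the long-term effect upward, 2.31 (SE 0.213, adjusted p = 3.12e-07), and the interaction was 3.43 (SE 0.314, adjusted p = 9.81e-07). EPHA3 (chromosome 3, 89107524 to 89482134, plus strand), an ephrin receptor, had 0.137, 0.152 and 0.314 CPM in short-term nontarget, 0.759, 0.731 and 0.354 in short-term knockdown, 0.268, 0.465 and 0.259 in long-term nontarget and 28.3, 31.8 and 19.7 in long-term knockdown libraries. All 9 other libraries were below 1 CPM (log2 interaction 4.69, SE 1.11, adjusted p = 0.00783), and the call was lost without short-term nontarget replicate 3 (adjusted p = 0.0761), although the long-term effect of 6.29 (SE 0.32, adjusted p = 2.69e-10) rests on other libraries.

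**Figure D1:**
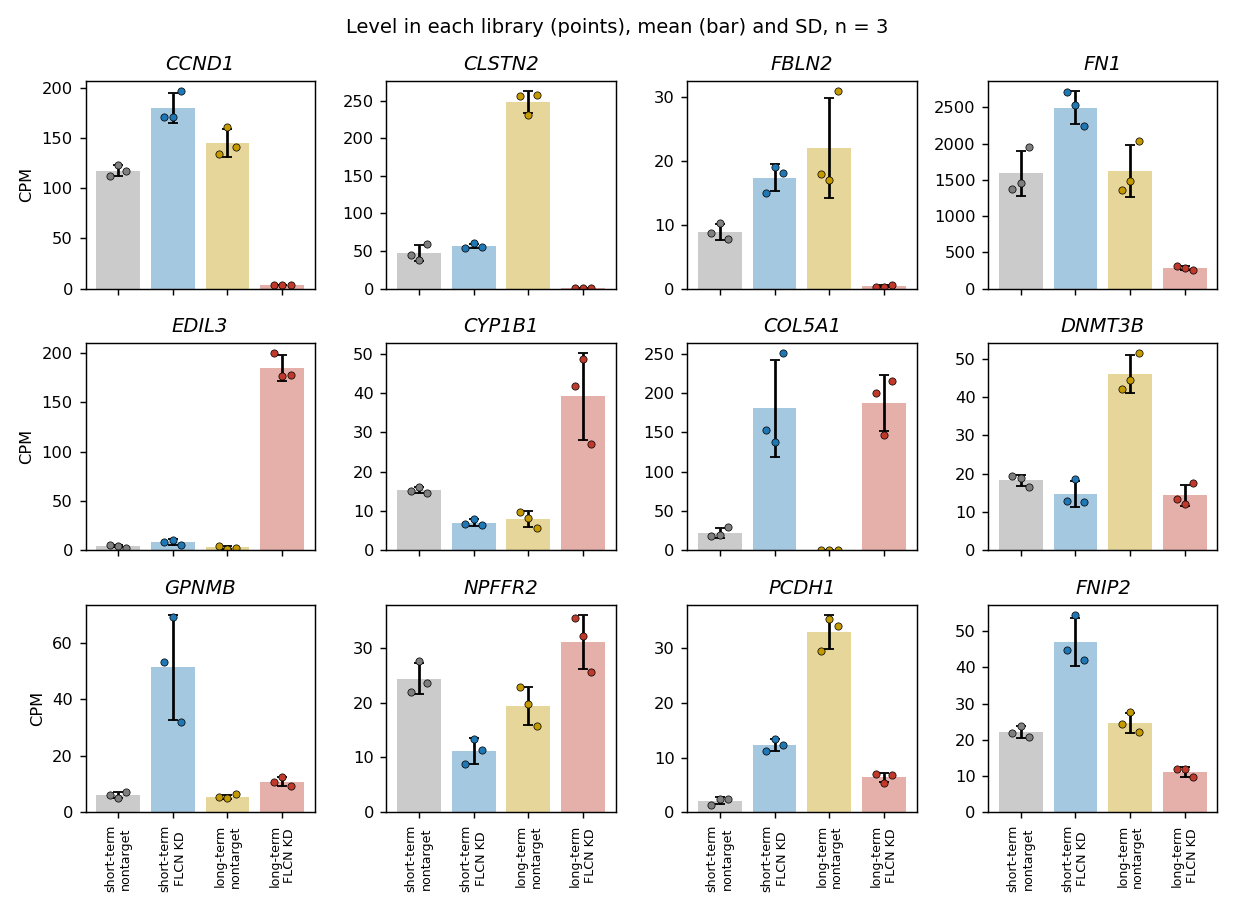
Level of 12 named genes in CPM (y axis, from 0, own scale per gene) in the 4 groups (x axis); points are libraries, bars the mean and whiskers the SD of 3. CCND1, CLSTN2, FBLN2 and FN1 are low in long-term knockdown cells, EDIL3 and CYP1B1 high there, COL5A1 low and DNMT3B high in long-term nontarget cells, GPNMB high and NPFFR2 low in short-term knockdown cells, and PCDH1 and FNIP2 have opposite effects at the 2 times.

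In 67 genes the long-term nontarget cells departed. They were below the other groups in 47 genes (4.96% of all genes tested had that shape) and above in 20 (4.59%). For the 47, the median change over time was −1.75 in nontarget and 0.23 in knockdown cells, and the median short-term knockdown effect was 0.03. The change over time passed the limits in 36 of the 47 without and in 5 with knockdown. For the 20, the median change over time was 2.14 in nontarget and −0.33 in knockdown cells. It passed in 17 of the 20 without and in 1 with knockdown. In all 67 genes the 3 long-term nontarget libraries lay beyond the 9 others.

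COL5A1 (chromosome 9, 134641774 to 134844843, plus strand), a chain of fibrillar collagen V, had 17.9, 19.4 and 29.7 CPM in short-term nontarget, 152, 138 and 251 in short-term knockdown, 0.268, 0 and 1.03 in long-term nontarget and 199.8, 147 and 215 in long-term knockdown libraries. Long-term nontarget cells had almost none of it, and short-term knockdown cells were already above their nontarget control, with an effect of 3.02 (SE 0.269, adjusted p = 4.86e-06). The interaction was 5.60 (SE 0.599, adjusted p = 1.24e-05), and 7.15 on the log2 scale without long-term nontarget replicate 3. VSTM4 (chromosome 10, 49014245 to 49115509, minus strand) had 8.2, 6.08 and 11.6 CPM in short-term nontarget, 6.96, 6.87 and 9.03 in short-term knockdown, 1.47, 1.39 and 2.2 in long-term nontarget and 33.5, 29.1 and 28.5 in long-term knockdown libraries (log2 interaction 4.33, SE 0.341, adjusted p = 1.38e-07). It was lowest in long-term nontarget and highest in long-term knockdown libraries, and the short-term groups overlapped.

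The 3 genes named for a rise in long-term nontarget cells had smaller interactions than COL5A1 and VSTM4. RASGRP1 (chromosome 15, 38488103 to 38565575, minus strand), an activator of Ras, had 6.29, 9.72 and 4.56 CPM in short-term nontarget, 7.21, 8.48 and 4.07 in short-term knockdown, 17.8, 20.1 and 17.3 in long-term nontarget and 3.7, 4.11 and 4.07 in long-term knockdown libraries (log2 interaction −2.18, SE 0.372, adjusted p = 5.59e-04). The short-term groups overlapped. MYO5B (chromosome 18, 49822813 to 50195093, minus strand), a motor of recycling endosomes, had 12.2, 7.29 and 8.17 CPM in short-term nontarget, 10.1, 10.7 and 9.38 in short-term knockdown, 21.3, 21.5 and 20.1 in long-term nontarget and 4.97, 6.31 and 4.07 in long-term knockdown libraries (log2 interaction −2.15, SE 0.282, adjusted p = 4.20e-05). Long-term knockdown libraries were the lowest. ST6GALNAC5 (chromosome 1, 76867441 to 77065711, plus strand), a sialyltransferase that acts on gangliosides, had 6.97, 7.14 and 7.54 CPM in short-term nontarget, 9.11, 9.65 and 10.1 in short-term knockdown, 30.02, 27.1 and 35.6 in long-term nontarget and 9.24, 10.4 and 12.7 in long-term knockdown libraries. Its 3 long-term nontarget libraries were above 27, and the 9 others below 13 (log2 interaction −1.94, SE 0.235, adjusted p = 1.85e-05).

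In 39 genes the short-term knockdown cells departed. They were above the others in 26 genes (5.38% of all genes tested had that shape) and below in 13 (6.07%). The median short-term effect was 1.79 for the 26 and −1.44 for the 13, and the median long-term effects were −0.68 and 0.16. SYT13 (chromosome 11, 45240301 to 45286319, minus strand), an atypical synaptotagmin, had 9.02, 9.26 and 15.1 CPM in short-term nontarget, 90.6, 96.9 and 98 in short-term knockdown, 8.18, 7.9 and 7.89 in long-term nontarget and 16.6, 15.3 and 17.6 in long-term knockdown libraries. Both knockdowns raised it, by 3.10 (SE 0.159, adjusted p = 1.32e-09) and 1.04 (SE 0.175, adjusted p = 1.96e-04), and the short-term effect was the larger one (log2 interaction −2.06, SE 0.237, adjusted p = 1.13e-05). GPNMB, a transmembrane glycoprotein of lysosomes and melanosomes whose gene is a target of TFE3, had 6.29, 5.16 and 7.07 CPM in short-term nontarget, 53.1, 69 and 32 in short-term knockdown, 5.36, 4.96 and 6.34 in long-term nontarget and 10.8, 12.5 and 9.33 in long-term knockdown libraries. The knockdown effects were 3.06 (SE 0.242, adjusted p = 6.55e-07) and 0.96 (SE 0.266, adjusted p = 0.0109), so the rise was present at both times and smaller at the later one (log2 interaction −2.10, SE 0.366, adjusted p = 7.23e-04).

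ST6GAL1 (chromosome 3, 186930485 to 187078553, plus strand), which adds sialic acid to N-glycans, had 13.9, 12.3 and 12.7 CPM in short-term nontarget, 36.4, 40.2 and 29.2 in short-term knockdown, 19.3, 17.6 and 16.4 in long-term nontarget and 10.4, 8.36 and 11.2 in long-term knockdown libraries. Its effect was upward short-term, 1.44 (SE 0.153, adjusted p = 1.07e-05), and downward long-term, −0.83 (SE 0.163, adjusted p = 8.06e-04) (log2 interaction −2.28, SE 0.224, adjusted p = 2.20e-06). Of those below, NUDT11 (chromosome X, 51490011 to 51496596, minus strand), a diphosphoinositol polyphosphate phosphatase, had 12.3, 9.26 and 11.9 CPM in short-term nontarget, 3.16, 1.02 and 2.83 in short-term knockdown, 9.52, 8.36 and 8.67 in long-term nontarget and 9.71, 7.63 and 9.5 in long-term knockdown libraries (log2 interaction 2.26, SE 0.357, adjusted p = 2.75e-04). The 3 other groups overlapped. NPFFR2 (chromosome 4, 72031804 to 72148067, plus strand), a receptor of neuropeptide FF, had 22, 27.5 and 23.6 CPM in short-term nontarget, 8.73, 13.4 and 11.3 in short-term knockdown, 22.8, 19.7 and 15.8 in long-term nontarget and 35.4, 32.1 and 25.6 in long-term knockdown libraries (log2 interaction 1.81, SE 0.257, adjusted p = 8.96e-05). The short-term knockdown libraries were all below the 9 others. SRSF12 (chromosome 6, 89095959 to 89118081, minus strand), a splicing regulator, had 9.98, 8.2 and 8.33 CPM in short-term nontarget, 3.8, 3.51 and 2.3 in short-term knockdown, 10.7, 6.04 and 7.25 in long-term nontarget and 10.2, 9.24 and 7.29 in long-term knockdown libraries (log2 interaction 1.60, SE 0.341, adjusted p = 0.00378). In NUDT11 and SRSF12 the long-term effect did not pass the test, at 0.02 (SE 0.226, adjusted p = 0.969) and 0.16 (SE 0.223, adjusted p = 0.648).

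Short-term nontarget cells departed in 16 genes, below the others in 13 (3.91% of all genes tested had that shape) and above in 3 (3.42%). For the 13, the median short-term effect was 1.75 and the median change over time in nontarget cells 1.75, while the long-term effect and the change over time with knockdown had medians of −0.28 and −0.21. UAP1L1 (chromosome 9, 137077501 to 137084539, plus strand) had 3.69, 3.19 and 3.46 CPM in short-term nontarget, 11.4, 11.1 and 13.3 in short-term knockdown, 6.43, 7.12 and 10.6 in long-term nontarget and 6.47, 5.28 and 7.97 in long-term knockdown libraries (log2 interaction −2.08, SE 0.318, adjusted p = 1.91e-04). The long-term groups overlapped. RGS5 (chromosome 1, 163111121 to 163321791, minus strand), a regulator of G protein signalling, had 9.29, 13.1 and 13.3 CPM in short-term nontarget, 28, 41.5 and 26.9 in short-term knockdown, 23.4, 16.9 and 25 in long-term nontarget and 20.7, 20.1 and 18.3 in long-term knockdown libraries (log2 interaction −1.58, SE 0.275, adjusted p = 6.61e-04). The short-term nontarget libraries were the lowest. ALDH1A3 (chromosome 15, 100877714 to 100916626, plus strand), an enzyme of retinoic acid synthesis, had 2.05, 2.43 and 3.61 CPM in short-term nontarget, 10.2, 11.3 and 6.02 in short-term knockdown, 10.6, 11.9 and 6.08 in long-term nontarget and 7.05, 14.5 and 10.2 in long-term knockdown libraries. Its interaction, −1.64 (SE 0.467, adjusted p = 0.0267), missed the adjusted p limit in 7 of the 12 fits without 1 library, with the highest value (0.0827) without short-term nontarget replicate 1. ELOVL6 (chromosome 4, 110045846 to 110199199, minus strand), a fatty acid elongase, was the single eligible gene above, with 16.7, 25.4 and 21.7 CPM in short-term nontarget, 7.97, 11.6 and 6.55 in short-term knockdown, 11.1, 15.8 and 11.4 in long-term nontarget and 13.9, 15.7 and 9.67 in long-term knockdown libraries (log2 interaction 1.33, SE 0.325, adjusted p = 0.00998). It lay close to the fold limit and fell under it in 8 of the 12 fits without 1 library, down to 1.17 without long-term knockdown replicate 2, and at 1.25 with replicates 1 and 2 alone.

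Among the called genes of any shape, 132 had both effects past an adjusted p of 0.05 with opposite signs. Of these, 112 were higher after short-term and lower after long-term knockdown and 20 the reverse. Both effects were past 2.5-fold in 30 of them, and 1 of the 30 was lower after short-term and higher after long-term knockdown. In 73 of the 132 no group departed alone, 62 of them with a short-term rise.

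TCIM (chromosome 8, 40153455 to 40155308, plus strand), a small protein that acts on the WNT/beta-catenin pathway, had 1.5, 1.22 and 1.89 CPM in short-term nontarget, 2.78, 4.09 and 3.19 in short-term knockdown, 37.5, 28.3 and 27.6 in long-term nontarget and 0, 0 and 0 in long-term knockdown libraries. The nontarget level was higher in long-term cells and the knockdown level fell to 0 reads, so long-term nontarget cells had at least 222-fold more than a floor of 3 counts (log2 interaction −11.88, SE 0.666, adjusted p = 1.42e-08). PCDH1 (chromosome 5, 141853111 to 141879246, minus strand), a protocadherin of epithelial contacts, had 1.37, 2.43 and 2.51 CPM in short-term nontarget, 11.1, 13.4 and 12.2 in short-term knockdown, 29.4, 35.3 and 34 in long-term nontarget and 6.93, 5.43 and 6.78 in long-term knockdown libraries. Its level was raised by short-term knockdown, 2.55 (SE 0.223, adjusted p = 1.82e-06), and lowered by long-term knockdown, −2.36 (SE 0.172, adjusted p = 2.32e-08) (log2 interaction −4.91, SE 0.28, adjusted p = 3.36e-09). The long-term nontarget level was the highest of the 4. In knockdown cells the level also fell over culture time, with a change of −0.94 (SE 0.1845, adjusted p = 0.001048). SMTNL2 (chromosome 17, 4583999 to 4608319, plus strand) followed the same order except that long-term knockdown was the lowest, with 3.83, 3.34 and 3.77 CPM in short-term nontarget, 8.1, 10.2 and 6.9 in short-term knockdown, 13, 15.9 and 17.6 in long-term nontarget and 0.693, 1.32 and 1.02 in long-term knockdown libraries (log2 interaction −5.16, SE 0.353, adjusted p = 2.36e-08).

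CDKN1C, which encodes the CDK inhibitor p57, had 42, 39 and 68 CPM in short-term nontarget, 103, 92.8 and 257 in short-term knockdown, 79.5, 88.6 and 166 in long-term nontarget and 20.8, 18.6 and 34.8 in long-term knockdown libraries. Replicate 3 was the highest library in each of the 4 groups (log2 interaction −3.79, SE 0.604, adjusted p = 9.86e-04), and the log2 interaction was −3.17 without short-term knockdown replicate 3. In the opposite direction, PCOLCE2, an enhancer of procollagen processing, had 14.1, 14.3 and 15.1 CPM in short-term nontarget, 7.72, 7.17 and 8.32 in short-term knockdown, 12.2, 14.4 and 10.6 in long-term nontarget and 25.3, 25.8 and 25.3 in long-term knockdown libraries (log2 interaction 1.95, SE 0.209, adjusted p = 5.40e-06). The nontarget groups overlapped and the knockdown groups lay on either side. TSPAN1 (chromosome 1, 46175073 to 46185958, plus strand), a tetraspanin, had 9.71, 12.4 and 11.6 CPM in short-term nontarget, 6.33, 6.43 and 5.84 in short-term knockdown, 17.8, 12.5 and 16.2 in long-term nontarget and 29.8, 30.4 and 36.1 in long-term knockdown libraries (log2 interaction 1.89, SE 0.239, adjusted p = 2.79e-05). These effects were near 2-fold each way. DLG4, a scaffold of synapses, and SGK2, a serum- and glucocorticoid-regulated kinase, had interactions of 1.64 (SE 0.34, adjusted p = 0.00294) and 1.51 (SE 0.243, adjusted p = 3.44e-04).

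The called genes were then read by function, through 31 lists of genes written from general knowledge with earlier results of these data known. In 26 of the 31 lists the share of called members was above the 5.44% of all genes, and the median log2 interaction was negative in 23, against 0.00 over all genes tested. Since 575 of the 759 calls over all genes were lower, the direction of calls in a list is to be read against that split. The lists overlap, and list shares are given as counts without a test.

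The share of called genes was above the 5.44% of all genes in each of 3 lists of extracellular matrix genes. Of 36 laminins and matrix glycoproteins tested, 11 were called, 2 higher and 9 lower (30.6%), with a median log2 interaction of −0.60. FN1 (chromosome 2, 215360440 to 215436172, minus strand), fibronectin, had 1368, 1451 and 1950.0 CPM in short-term nontarget, 2707, 2537 and 2251 in short-term knockdown, 1364, 1482 and 2036 in long-term nontarget and 313, 288 and 251 in long-term knockdown libraries. The 3 long-term knockdown libraries lay far below the 9 others, which overlapped between the nontarget groups (log2 interaction −3.17, SE 0.223, adjusted p = 5.01e-08). FBLN2 (chromosome 3, 13549131 to 13638422, plus strand), fibulin 2 of elastic fibres, had 8.75, 10.2 and 7.7 CPM in short-term nontarget, 14.9, 19 and 18.1 in short-term knockdown, 18, 17 and 30.9 in long-term nontarget and 0.231, 0.293 and 0.509 in long-term knockdown libraries (log2 interaction −6.95, SE 0.45, adjusted p = 1.59e-08). No long-term knockdown library reached 1 CPM. THBS2, an anti-angiogenic thrombospondin, had 44.4, 35.8 and 52.5 CPM in short-term nontarget, 98.6, 72.8 and 119 in short-term knockdown, 93.5, 88.4 and 88.5 in long-term nontarget and 3.47, 3.23 and 4.07 in long-term knockdown libraries (log2 interaction −5.78, SE 0.266, adjusted p = 2.20e-10). The 3 lowest libraries were those of long-term knockdown.

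Of 20 collagens, 6 were called, 2 higher and 4 lower (median −0.48). COL8A2 (chromosome 1, 36095236 to 36125220, minus strand) of basement membranes and COL14A1 (chromosome 8, 120059780 to 120372036, plus strand), a collagen bound to fibrils, had interactions of −3.12 (SE 0.288, adjusted p = 9.96e-07) and −4.64 (SE 0.492, adjusted p = 4.70e-06), each with long-term knockdown below. Without long-term knockdown replicate 3 that of COL14A1 was −5.72. COL5A1 moved the other way through the nontarget cells. Among 31 matrix proteases and inhibitors 7 were called, 3 higher and 4 lower (median −0.17). ADAMTS12 (chromosome 5, 33523535 to 33892192, minus strand) had 112, 121 and 136 CPM in short-term nontarget, 259, 274 and 211 in short-term knockdown, 268, 264 and 232 in long-term nontarget and 105, 98.6 and 93.3 in long-term knockdown libraries, an opposite pair of effects (log2 interaction −2.38, SE 0.16, adjusted p = 2.23e-08). PLAT (chromosome 8, 42175233 to 42207724, minus strand), tissue plasminogen activator, was lower in long-term knockdown cells alone, at 4.62, 4.25 and 6.95 CPM against 21.8 to 33.5 in the others (log2 interaction −2.42, SE 0.257, adjusted p = 4.84e-06). Collagens, glycoproteins and proteases therefore had calls in both directions.

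Over the lists of integrins, cadherins and junction genes most calls were lower, as were 575 of the 759 calls over all genes. Of 15 integrins 3 were called, all lower (median −0.36): ITGB8 at −2.97 (SE 0.263, adjusted p = 9.96e-07), ITGA6 at −1.46 (SE 0.189, adjusted p = 3.54e-05) and ITGA4 at −4.32 (SE 0.679, adjusted p = 2.63e-04). ITGA4 had 3 counts in the long-term knockdown group, and its log2 interaction was −3.64 without long-term knockdown replicate 1 and −5.26 without replicate 3. Of 20 cadherins, protocadherins and calsyntenins 5 were called, 1 higher and 4 lower (median −0.41), and CDH3 (chromosome 16, 68636189 to 68722616, plus strand), P-cadherin, had 5.88, 6.23 and 11 CPM in short-term nontarget, 22.9, 21.8 and 24.2 in short-term knockdown, 16.5, 14.6 and 16.8 in long-term nontarget and 1.5, 0.587 and 1.36 in long-term knockdown libraries (log2 interaction −5.34, SE 0.361, adjusted p = 2.23e-08). Short-term knockdown cells were the highest. Of 30 keratins and junction genes 8 were called, 1 higher and 7 lower (median −0.56). CLDN1 (chromosome 3, 190305701 to 190322475, minus strand), a claudin that seals tight junctions, had 278, 278 and 258 CPM in short-term nontarget, 226, 188 and 200.2 in short-term knockdown, 248, 194 and 238 in long-term nontarget and 35.9, 36.2 and 33.8 in long-term knockdown libraries (log2 interaction −2.27, SE 0.153, adjusted p = 2.23e-08). The long-term knockdown libraries were tightly grouped. CLDN2 (chromosome X, 106900164 to 106930861, plus strand), the claudin that forms cation pores in proximal tubule, had 14.1, 14.1 and 17.9 CPM in short-term nontarget, 11.1, 13.2 and 9.2 in short-term knockdown, 13.8, 14.6 and 25.8 in long-term nontarget and 62, 64.9 and 63.3 in long-term knockdown libraries and was called in the other direction (log2 interaction 2.26, SE 0.288, adjusted p = 3.21e-05). CGN, cingulin of the tight junction, was lower (log2 interaction −3.37, SE 0.317, adjusted p = 1.26e-06).

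All 8 called genes of 29 EMT factors and contractile genes were lower (median −0.68). TAGLN (chromosome 11, 117199321 to 117204782, plus strand), transgelin of actin bundles, had 795, 680.4 and 702 CPM in short-term nontarget, 458, 414 and 558 in short-term knockdown, 816, 783 and 735 in long-term nontarget and 148, 137 and 183 in long-term knockdown libraries (log2 interaction −1.71, SE 0.174, adjusted p = 3.24e-06). It was lower after knockdown at both times, and by more at the later one. TNNC1 (chromosome 3, 52451102 to 52454070, minus strand), troponin C of slow muscle, had 4.65, 3.49 and 5.34 CPM in short-term nontarget, 10.9, 12.4 and 12.9 in short-term knockdown, 4.15, 5.88 and 6.73 in long-term nontarget and 0.347, 0.293 and 0.339 in long-term knockdown libraries (log2 interaction −5.44, SE 0.426, adjusted p = 1.30e-07). Short-term knockdown raised it and long-term knockdown lowered it. The 8 called of 26 exocytosis and synaptic adhesion genes were also lower (median −0.67, and −0.54 with groups of 0 counts set at 3 counts), and NEURL1 (chromosome 10, 103493979 to 103592552, plus strand), a neuralized ubiquitin ligase, had 4.78, 6.08 and 4.71 CPM in short-term nontarget, 3.92, 4.24 and 6.55 in short-term knockdown, 11.5, 14.4 and 15.4 in long-term nontarget and 0.116, 0 and 0.17 in long-term knockdown libraries (log2 interaction −6.84, SE 0.555, adjusted p = 2.02e-07). Its long-term knockdown group held 2 counts. Of 45 guidance genes, 3 were called higher and 2 lower (median −0.03), NRP1 at 1.35 (SE 0.17, adjusted p = 2.79e-05), SEMA3E at −2.28 (SE 0.323, adjusted p = 8.94e-05) and NTNG1 at 2.56 (SE 0.396, adjusted p = 2.23e-04). NRP1 fell under the fold limit in 5 of the 12 fits without 1 library (long-term knockdown replicates 1 and 2, long-term nontarget replicate 3, short-term nontarget replicates 1 and 3), at 1.25 to 1.32.

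Growth factor pathways were called at a share above that of all genes. Of 41 TGF-beta and BMP genes 10 were called, 1 higher and 9 lower (median −0.14), and long-term knockdown departed in 6, short-term knockdown in 2, with opposite effects in 2. TGFBR3 (chromosome 1, 91680343 to 91906335, minus strand), the co-receptor betaglycan, had 11.6, 11.8 and 8.64 CPM in short-term nontarget, 13.8, 11.1 and 12.2 in short-term knockdown, 15.8, 16.9 and 15.5 in long-term nontarget and 2.66, 2.2 and 3.39 in long-term knockdown libraries (log2 interaction −2.76, SE 0.269, adjusted p = 2.05e-06). The long-term knockdown group stood apart. FSTL1 (chromosome 3, 120392293 to 120451253, minus strand), a secreted BMP antagonist, had 45.8, 41.8 and 52.2 CPM in short-term nontarget, 79.5, 75 and 74.5 in short-term knockdown, 16.8, 15.5 and 14.4 in long-term nontarget and 7.86, 5.14 and 7.97 in long-term knockdown libraries (log2 interaction −1.86, SE 0.21, adjusted p = 9.10e-06). In that gene both long-term groups were below both short-term groups. BMP8B, a BMP ligand, was highest in short-term knockdown cells (log2 interaction −1.91, SE 0.308, adjusted p = 3.51e-04).

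Of 31 WNT genes 8 were called, 2 higher and 6 lower (median −0.26). WNT5A (chromosome 3, 55465715 to 55490539, minus strand), a ligand mostly of noncanonical signalling, had 13.9, 12.6 and 16.8 CPM in short-term nontarget, 11.9, 15.3 and 17.3 in short-term knockdown, 4.69, 3.56 and 3.62 in long-term nontarget and 20.3, 21.1 and 23.1 in long-term knockdown libraries (log2 interaction 2.40, SE 0.26, adjusted p = 5.86e-06). The short-term groups overlapped. WNT5B (chromosome 12, 1529891 to 1647243, plus strand), its close relative, had 27.9, 27.8 and 20.9 CPM in short-term nontarget, 47.5, 38.2 and 47.1 in short-term knockdown, 39.1, 45.1 and 58 in long-term nontarget and 15.7, 15.3 and 24.2 in long-term knockdown libraries and an interaction of the other sign (log2 interaction −2.17, SE 0.263, adjusted p = 1.89e-05). WNT2B was lowest in long-term nontarget cells, like WNT5A (log2 interaction 2.99, SE 0.427, adjusted p = 9.71e-05). Over the 8 called genes long-term knockdown departed in 2, long-term nontarget in 3, and short-term knockdown and short-term nontarget in 1 each, and 1 had opposite effects.

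Of 32 EGF, FGF and IGF genes 7 were called, 2 higher and 5 lower (median −0.50). TGFA (chromosome 2, 70447280 to 70554193, minus strand) and EREG (chromosome 4, 74365143 to 74388751, plus strand) are both ligands of the EGF receptor, and moved in opposite directions. TGFA had 16.1, 16.6 and 17.3 CPM in short-term nontarget, 35.3, 39.2 and 34.5 in short-term knockdown, 15.1, 12.2 and 16 in long-term nontarget and 5.2, 6.46 and 6.95 in long-term knockdown libraries (log2 interaction −2.37, SE 0.216, adjusted p = 9.81e-07), and EREG had 89, 77 and 107 CPM in short-term nontarget, 49.4, 33.8 and 66.5 in short-term knockdown, 59.1, 48.3 and 42.4 in long-term nontarget and 180.3, 182 and 170.1 in long-term knockdown libraries (log2 interaction 2.70, SE 0.269, adjusted p = 4.76e-06). Their short-term effects were 1.13 (SE 0.14, adjusted p = 5.49e-05) and −0.87 (SE 0.191, adjusted p = 0.0074), their long-term effects −1.24 (SE 0.165, adjusted p = 1.93e-05) and 1.83 (SE 0.19, adjusted p = 2.51e-06). ERBB3, a receptor of neuregulins that pairs with ERBB2, was higher after short-term and lower after long-term knockdown (log2 interaction −3.71, SE 0.384, adjusted p = 3.76e-06).

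Of 30 cytokine, chemokine and NF-kB genes 9 were called, 3 higher and 6 lower (median −0.75, among the lists of function the lowest). CXCL5 (chromosome 4, 73995642 to 73998779, minus strand), a neutrophil chemokine, had 35.3, 28.6 and 29.2 CPM in short-term nontarget, 31.1, 31.3 and 47.2 in short-term knockdown, 12.2, 12.1 and 11.8 in long-term nontarget and 134, 119 and 130.4 in long-term knockdown libraries (log2 interaction 3.18, SE 0.216, adjusted p = 2.23e-08). Long-term nontarget cells were the lowest and long-term knockdown cells the highest. IL18 (chromosome 11, 112143251 to 112164117, minus strand), an inflammasome cytokine, and IL6R (chromosome 1, 154405193 to 154469450, plus strand), the receptor of interleukin 6, were low in long-term knockdown cells alone, at 8.55, 8.22 and 9.16 and 3.7, 3.67 and 4.58 CPM against 38.9 to 67.1 and 15.6 to 21.6 in the other groups (log2 interaction −2.12, SE 0.196, adjusted p = 1.04e-06; log2 interaction −2.19, SE 0.245, adjusted p = 8.55e-06). Of 39 interferon-stimulated genes 3 were called, all lower (7.69%, median −0.39). GBP1, a guanylate-binding protein, was lower at −3.49 (SE 0.424, adjusted p = 2.01e-05). IFITM1 and OAS1 were called at −1.71 (SE 0.473, adjusted p = 0.0216) and −2.34 (SE 0.705, adjusted p = 0.038). IFITM1 lost its call in 2 and OAS1 in 8 of the 12 fits without 1 library, up to adjusted p = 0.08 and 0.105, both without long-term knockdown replicate 1, and IFITM1 also with DESeq2 (0.0506). The annotated IFITM1 also overlaps IFITM2.

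Of 20 genes of MHC class I presentation 2 were called, both lower, and 17 of the 20 interactions were negative (median −0.46). PSMB9, a subunit of the immunoproteasome, had −1.40 (SE 0.264, adjusted p = 0.00135), and NLRC5, the activator of MHC class I genes, −1.39 (SE 0.336, adjusted p = 0.00901). With replicates 1 and 2 alone NLRC5 was not called (adjusted p = 0.0707). Both genes fell under the fold limit in 3 of the 12 fits without 1 library. These were long-term knockdown replicate 1, short-term knockdown replicate 1 and short-term nontarget replicate 3 for PSMB9 (−1.28 to −1.32), and long-term nontarget replicate 3 and short-term knockdown replicates 2 and 3 for NLRC5 (−1.27 to −1.30). The complement list had 4 of 13 called, 2 in each direction (median 0.28): C3 (chromosome 19, 6677704 to 6730562, minus strand) was lower at −2.09 (SE 0.284, adjusted p = 6.45e-05), and CLU, the chaperone clusterin, lower at −1.79 (SE 0.201, adjusted p = 8.62e-06).

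Genes next to FLCN in its pathway were called in 3 of 38 (7.89%), all lower, with a median of 0.01. FNIP2 (chromosome 4, 158769138 to 158908049, plus strand), the partner of folliculin, had 22, 23.8 and 20.7 CPM in short-term nontarget, 44.8, 54.5 and 41.9 in short-term knockdown, 24.4, 27.7 and 22.1 in long-term nontarget and 11.9, 12 and 9.67 in long-term knockdown libraries (log2 interaction −2.22, SE 0.206, adjusted p = 1.10e-06). The nontarget groups overlapped. RRAGD (chromosome 6, 89364636 to 89412270, minus strand), a Rag GTPase and a target of TFEB and TFE3, had 13.7, 13.1 and 11.5 CPM in short-term nontarget, 31.4, 29.98 and 21.8 in short-term knockdown, 8.85, 8.98 and 7.63 in long-term nontarget and 4.04, 5.43 and 6.61 in long-term knockdown libraries (log2 interaction −1.81, SE 0.276, adjusted p = 1.88e-04). In both genes knockdown raised the level short-term, 1.08 (SE 0.139, adjusted p = 7.44e-05) and 1.12 (SE 0.175, adjusted p = 4.02e-04), and lowered it long-term, −1.13 (SE 0.152, adjusted p = 2.06e-05) and −0.68 (SE 0.213, adjusted p = 0.0215). DEPTOR, an inhibitor of mTOR, had 19.3, 21.6 and 22.8 CPM in short-term nontarget, 17.3, 15.6 and 16.6 in short-term knockdown, 52.3, 47.7 and 44 in long-term nontarget and 4.28, 2.94 and 2.37 in long-term knockdown libraries and departed in long-term knockdown cells (log2 interaction −3.50, SE 0.238, adjusted p = 2.23e-08).

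Of 42 lysosomal genes and targets of TFEB and TFE3, 5 were called, 1 higher and 4 lower (11.9%, median −0.16). The gene called higher was GAA (chromosome 17, 80101556 to 80119879, plus strand), the lysosomal enzyme acid alpha-glucosidase, with 34.2, 30.2 and 29.5 CPM in short-term nontarget, 20.9, 21.6 and 23.2 in short-term knockdown, 25.2, 30.2 and 28.3 in long-term nontarget and 51.4, 56.4 and 65.5 in long-term knockdown libraries (log2 interaction 1.57, SE 0.179, adjusted p = 1.05e-05). Short-term knockdown cells were the lowest. The 250 bases upstream of the most upstream RefSeq start of 3 of these genes are shown, because the list is defined by factors that bind DNA and its called members moved in opposite directions. CACGTG, a palindrome that lies within the element bound by TFEB and TFE3, is in capitals, read 5′ to 3′ on the strand of the gene (RefSeq, GRCh38.p14).
GAA, chr17:80101331-80101580, plus strand: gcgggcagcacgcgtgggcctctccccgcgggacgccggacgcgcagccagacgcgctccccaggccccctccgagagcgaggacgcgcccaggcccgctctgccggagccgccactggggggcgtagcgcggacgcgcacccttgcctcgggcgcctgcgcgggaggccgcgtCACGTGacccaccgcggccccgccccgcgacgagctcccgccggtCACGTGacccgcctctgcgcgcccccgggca
GPNMB, chr7:23246525-23246774, plus strand: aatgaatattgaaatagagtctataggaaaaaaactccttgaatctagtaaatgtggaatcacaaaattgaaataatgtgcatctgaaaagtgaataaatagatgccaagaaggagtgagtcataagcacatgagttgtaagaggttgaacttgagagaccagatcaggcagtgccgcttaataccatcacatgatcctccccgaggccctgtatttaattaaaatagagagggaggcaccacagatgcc
FNIP2, chr4:158768776-158769025, plus strand: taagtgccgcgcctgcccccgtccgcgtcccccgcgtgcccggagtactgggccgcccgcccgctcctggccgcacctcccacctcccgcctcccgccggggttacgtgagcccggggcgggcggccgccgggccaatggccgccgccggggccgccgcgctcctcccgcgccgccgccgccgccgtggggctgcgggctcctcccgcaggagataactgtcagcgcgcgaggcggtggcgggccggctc
GAA, called higher, held 2 matches, and GPNMB and FNIP2, called lower, held none in these letters. Other forms of the element were not searched, so a window without CACGTG may still hold a site. Of the 73 named genes with a window, 7 held CACGTG in the 250 bases. GAA and TET2 among them were called higher, and ITGA6, SEMA3E, SLC7A5, CGN and DPP4 lower. Windows of 250 bases before to 50 after the start were found for 9669 of the 12121 protein-coding genes tested, and 995 held the motif (10.3%). A window was found for 493 of the 680 called protein-coding genes (72.5%), too few for a comparison of promoter composition or motifs between the classes, which is therefore void.

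Among the lists of cell cycle genes, calls were found in that of the G1/S step alone. Of its 31 genes 4 were called (12.9%, against 5.44% of all genes), all lower. They were CCND1, CDKN1C, FOXN3 and CDKN1A, and the list median was 0.08. CDKN1A (chromosome 6, 36676460 to 36687339, plus strand), the CDK inhibitor p21, had 87.6, 79 and 78.4 CPM in short-term nontarget, 71.6, 77.9 and 92.5 in short-term knockdown, 59.1, 65.3 and 104 in long-term nontarget and 29.4, 27.1 and 20.5 in long-term knockdown libraries (log2 interaction −1.54, SE 0.259, adjusted p = 5.94e-04). Its log2 interaction was under the fold limit with replicates 1 and 2 alone, at −0.97, and without long-term nontarget replicate 3, at −1.25. The 9 other libraries overlapped between groups. FOXN3, a forkhead repressor, was lower at −1.84 (SE 0.182, adjusted p = 2.50e-06). None of 42 genes of DNA replication and none of 49 of mitosis were called by edgeR or by DESeq2, and their medians were 0.07 and 0.08. At an unadjusted p below 0.05 there were 10 of 42 and 6 of 49, against 26.5% of all genes, and with no fold limit 4 and 2 passed, against 13.4%. Neither share was above that of all genes.

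Of 28 amino acid transporters 7 were called, all lower (25.0%, median −0.24). SLC7A5 (chromosome 16, 87830023 to 87869488, minus strand), the LAT1 carrier of large neutral amino acids, had 310.1, 272 and 346 CPM in short-term nontarget, 379.7, 353 and 759 in short-term knockdown, 449.9, 477 and 722 in long-term nontarget and 148, 128 and 234 in long-term knockdown libraries (log2 interaction −2.38, SE 0.397, adjusted p = 7.70e-04). Replicate 3 was the highest library of each group. SLC3A2, the heavy chain that brings it to the membrane, had −1.44 (SE 0.188, adjusted p = 4.14e-05), and SLC7A7, which pairs with the same chain, −2.14 (SE 0.293, adjusted p = 6.46e-05). SLC3A2 was under the fold limit, at −1.31, without short-term knockdown replicate 3. By contrast none of 34 ATF4 targets and tRNA synthetases were called by edgeR or DESeq2 (median −0.06). Of the 34, 7 had an unadjusted p below 0.05 and 5 passed with no fold limit, against 26.5% and 13.4% of all genes. Of 37 glycolysis and HIF genes 4 were called, all lower (median −0.24), with ADM (chromosome 11, 10304680 to 10307397, plus strand), adrenomedullin, at −4.53 (SE 0.32, adjusted p = 3.42e-08) and NDRG1 at −2.04 (SE 0.244, adjusted p = 1.75e-05). With no fold limit 11 of the 37 passed, against 13.4% of all genes, and all were lower.

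None of 74 nuclear-encoded genes of the respiratory chain and PGC-1 were called by either tool. With 22 at an unadjusted p below 0.05 and 11 past the adjusted p with no fold limit, the list was near the 26.5% and 13.4% of all genes. The 11 were all higher, and 58 of the 74 interactions were positive (median 0.23). Of 33 genes of sterol and fatty acid synthesis 2 were called, both higher (median 0.20), a share of 6.06%, near the 5.44% of all genes. ELOVL6, described above as close to the fold limit, was 1 of them. Of 30 NRF2 and oxidative stress genes 3 were called, all lower (median −0.17), and each lost its call in at least 1 fit without a library. AKR1C1, whose reads may be shared with near-identical relatives, had −3.18 (SE 0.84, adjusted p = 0.0164) with 2 counts in the long-term knockdown group. Its log2 interaction was −5.78 without long-term knockdown replicate 1, and its adjusted p was 0.0558 without replicate 2. ABCC2 at −2.25 (SE 0.629, adjusted p = 0.0232) lost the call in 4 and OSGIN1 at −1.42 (SE 0.437, adjusted p = 0.0381) in 8 of the 12 fits without 1 library, up to adjusted p = 0.0788 without short-term nontarget replicate 1 and 0.115 without long-term nontarget replicate 3, and the log2 interaction of ABCC2 was −2.97 without short-term nontarget replicate 2. The AP-1 and immediate early list had 1 of 24 called (4.17%, median −0.10), the phosphatase DUSP6 at −1.44 (SE 0.259, adjusted p = 8.74e-04), and −1.12, under the fold limit, with replicates 1 and 2 alone.

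Of 27 HOX genes 4 were called, 3 higher and 1 lower (median 0.49), and 17 of the 27 interactions were positive. HOXA5 (chromosome 7, 27141052 to 27143668, minus strand) had 21.5, 22.3 and 26.4 CPM in short-term nontarget, 22.3, 25.7 and 30.6 in short-term knockdown, 15.8, 11.5 and 17.9 in long-term nontarget and 74.9, 69.99 and 87.2 in long-term knockdown libraries (log2 interaction 2.19, SE 0.23, adjusted p = 4.27e-06). The short-term groups overlapped. HOXA7 (chromosome 7, 27153716 to 27157936, minus strand) had 23.2, 20.6 and 21.5 CPM in short-term nontarget, 24.7, 26.8 and 31 in short-term knockdown, 9.78, 10.4 and 12.3 in long-term nontarget and 35.8, 39.2 and 46.3 in long-term knockdown libraries (log2 interaction 1.57, SE 0.205, adjusted p = 4.14e-05). Long-term nontarget cells departed, below the rest. HOXA11 was higher at 2.04 (SE 0.336, adjusted p = 4.08e-04). In all 3 the level was lower in long-term than in short-term nontarget cells and higher in long-term than in short-term knockdown cells. All 3 lie on chromosome 7, where 72.8% of the interactions were positive, with a median of 0.31. The genes overlap antisense transcripts, and whether counting used strand is not stated, so reads of both cannot be told apart. Of 22 kidney developmental factors 2 were called, SOX9 at 2.18 (SE 0.427, adjusted p = 0.0019) and GATA3 at −2.32 (SE 0.547, adjusted p = 0.00779) (median −0.11). With replicates 1 and 2 alone GATA3 was not called (adjusted p = 0.0563).

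Of 35 Polycomb and DNA methylation genes 3 were called, 2 higher and 1 lower (median −0.03). DNMT3B (chromosome 20, 32762385 to 32809356, plus strand), a de novo DNA methyltransferase, had 19.3, 19 and 16.5 CPM in short-term nontarget, 12.8, 18.6 and 12.6 in short-term knockdown, 42.1, 44.3 and 51.5 in long-term nontarget and 13.5, 12.2 and 17.5 in long-term knockdown libraries and departed in long-term nontarget cells, above the rest (log2 interaction −1.36, SE 0.243, adjusted p = 8.26e-04). TET2 (chromosome 4, 105145875 to 105279816, plus strand), which oxidizes methylcytosine, had 9.98, 12.2 and 12.7 CPM in short-term nontarget, 8.22, 10.2 and 11.9 in short-term knockdown, 2.41, 2.63 and 1.42 in long-term nontarget and 11.2, 13.2 and 8.65 in long-term knockdown libraries and departed in the same cells, below the rest (log2 interaction 2.58, SE 0.332, adjusted p = 3.50e-05). TET1 was called at 1.94 (SE 0.56, adjusted p = 0.0277) but missed the limit in 7 of 12 fits without 1 library, up to adjusted p = 0.0785 without short-term nontarget replicate 1. DNMT3B fell under the fold limit in 5 of the 12 fits without 1 library (long-term knockdown replicates 1 and 2, long-term nontarget replicate 3, short-term knockdown replicate 2, short-term nontarget replicate 3), at −1.16 to −1.32. In knockdown cells the ranges of the 2 times overlapped in both DNMT3B and TET2.

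Markers of cell types were few. Of 17 proximal tubule genes tested 3 were called (17.6%, against 5.44% of all genes, median −0.04), CDH6 and DPP4 among them. CDH6 (chromosome 5, 31193750 to 31329146, plus strand), K-cadherin, had 51.4, 64.7 and 87 CPM in short-term nontarget, 134, 176 and 96.6 in short-term knockdown, 228, 208 and 295 in long-term nontarget and 1701, 1742 and 1412 in long-term knockdown libraries (log2 interaction 1.72, SE 0.294, adjusted p = 8.45e-04). It rose over culture time in both kinds of cells. DPP4, a brush border peptidase, was lower at −2.32 (SE 0.213, adjusted p = 9.96e-07). The summed level of the 35 listed genes was 567 to 649 CPM in short-term nontarget, 725 to 912 in short-term knockdown, 718 to 858 in long-term nontarget and 2020 to 2410 in long-term knockdown libraries, of which CDH6 made up the greater part in the last group. Of the 12 fibroblast markers 6 were tested and 3 called, LUM, the matrix proteoglycan lumican, at 3.70 (SE 0.466, adjusted p = 3.47e-05), PDGFRB at −2.64 (SE 0.635, adjusted p = 0.00893) and THY1 at −2.87 (SE 0.859, adjusted p = 0.0338). PDGFRB was −3.28 without long-term knockdown replicate 3, and THY1 lost its call in 5 of the 12 fits without 1 library, up to adjusted p = 0.0775 without short-term nontarget replicate 2. Its log2 interaction was −3.97 without short-term nontarget replicate 3. The summed fibroblast level was 65.5 to 77.4, 67.8 to 85.6, 37.7 to 47.9 and 35.1 to 43.2 CPM in the same order of groups, so it moved with culture time in both kinds of cells, and its part in the results was not tested.

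No endothelial or immune marker had enough counts to be tested, with 2 of 10 and 7 of 12 at 0 counts in all libraries, PTPRC and KDR among them, and sums of at most 3.10 CPM in any library. The endothelial sum was 1.24 to 3.10 in long-term nontarget and 0.115 to 0.677 in long-term knockdown libraries. Distal nephron markers summed to 5.25 to 12.3 CPM, with UMOD and SLC12A1 at 0 and overlapping ranges in the 4 groups. Podocyte markers summed to 121 to 130 CPM in short-term nontarget, 88.7 to 122 in short-term knockdown, 89.1 to 119 in long-term nontarget and 69.2 to 90.9 in long-term knockdown libraries, with NPHS1 and WT1 at 0. The range of short-term nontarget libraries overlapped neither that of long-term nontarget nor that of long-term knockdown libraries, and the part of these markers in the results was not tested. No distal nephron or podocyte marker was called, nor by DESeq2, and 1 of 4 and 0 of 3 had an unadjusted p below 0.05 (26.5% of all genes). Of 4 neural markers tested 1 was called (25.0%, against 5.44% of all genes), TUBB3, a tubulin, lower at −1.81 (SE 0.307, adjusted p = 5.32e-04). The list summed to 47.6 to 52.2 CPM in the 6 short-term and 36.0 to 41.5 CPM in the 6 long-term libraries. This sum, too, moved with culture time in both kinds of cells, and its part in the results was not tested.

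Genes were also read by chromosome, which no limit had used. The share of genes called ran from 3.38% on chromosome 16 to 10.1% on chromosome 21 (14 of 139). On chromosome 7 a small shift ran over most genes: 489 of 672 interactions were positive (72.8%, against 7002 of 13959 over all genes), with a median of 0.31 on the log2 scale, although 31 of the 672 were called (4.61%), 13 higher and 18 lower. The median change over culture time on chromosome 7 was −0.22 in nontarget and 0.09 in knockdown cells. The median interaction stayed between 0.285 and 0.322 without each library in turn. On chromosome 14 the median change over time was −0.34 in nontarget and −0.46 in knockdown cells, and the median interaction, −0.09, was small beside both.

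On the mitochondrial genome 19 of 21 interactions were positive with a median of 0.65. With no fold limit 11 of the 21 passed, all higher, against 13.4% of all genes, and 1, the transfer RNA MT-TP, was past the fold limit as well. The median change over time there was −0.63 in nontarget and −0.09 in knockdown cells, and the interaction median was 0.454 to 0.754 without each library in turn. Because the nucleus holds near-identical copies of mitochondrial sequence, these counts are uncertain.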

How the data were processed

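RNA of 12 HK2 libraries was sequenced by the authors. Per their methods, reads were trimmed with fastp, mapped with STAR and counted with featureCounts, and groups were compared with DESeq2. The submitters' processing notes name GRCh38. Versions, annotation and strand setting were not given in the sources used here. The deposited table holds raw counts per gene and, as a score, counts the authors divided by a factor per library. The raw counts, equal in the authors' per-library files, were used here, and 0 columns had no sample.

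The 58288 IDs were matched to GENCODE 29 (308 not matched), and coordinates are printed only for IDs of the same version. Of the 108 named genes, 72 overlap another annotated gene on either strand, and reads of such pairs cannot be told apart. Genes kept by filterByExpr (13959) were fitted with edgeR 4.0.16 in R 4.3.3 (TMM factors, robust quasi-likelihood, 1 term per group, prior count 0.125 for fold changes and 2 for levels). All tests were two-sided, with the Benjamini-Hochberg method applied over the genes tested and n = 3 libraries per group. SE is the log2 value divided by the square root of F. Replicates differed by more than counting noise (chi-square per degree of freedom 2.15 to 13), and intervals of low counts cover counting error only.

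The scripts were tested on simulated data. Members, lists and limits were chosen with earlier results of these data known. Named were called protein-coding genes with a mean of at least 50 counts and, for a departing group, 3 libraries beyond the 9 others: the 6 largest per direction for long-term knockdown, 3 for each other group, 4 per sign among opposite genes, up to 3 called members per list by lowest p, and FLCN. Some genes the rule names are not reported here. MT-TP and the markers given as absent lie outside that rule and were named after their values were seen. Alternatives were RLE factors, DESeq2 1.42.0, other filters, prior counts and limits, a replicate block, replicates 1 and 2 alone (added later), the per-library files and leaving out each library.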

Additional observations from a re-analysis of the deposited data

Results flagged for a closer look

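The knockdown effect differed between short-term and long-term cells by the interaction test in 759 genes, with edgeR. Every gene named for its interaction meets that condition by how it was chosen. The 8 genes named for opposite effects at the 2 times are given with their log2 interaction: −11.88 for TCIM, −5.16 for SMTNL2, −4.91 for PCDH1 and −3.79 for CDKN1C, which were higher after short-term and lower after long-term knockdown, and 1.95 for PCOLCE2, 1.89 for TSPAN1, 1.64 for DLG4 and 1.51 for SGK2, which were the reverse. TCIM had 0 counts in the long-term knockdown group, so its fitted value depends on the prior count. Groups of 3 libraries are too small for the outlier test used here, but replicate 3 differed more from replicates 1 and 2 than these did from each other in all 4 groups.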

How the results depend on the processing

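The count of 759 was 764 with RLE factors (758 genes shared), 749 with DESeq2 (727 shared), 891 with no filter on low counts and 1040 at a fold limit of 2, and was unchanged with the per-library files. It was 282 (62 higher, 220 lower) among genes of at least 10 CPM and 1872 (695 higher, 1177 lower) with no fold limit. A prior count of 2 for the fold changes, chosen after seeing the data, gave 717. Without each library in turn it ranged from 676 to 840 (155 to 202 higher, 521 to 638 lower), with 636 to 718 of the 759 genes shared, and of these 90.1% to 95.4% kept their departing group.

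A gap of 2 times the range left 240 genes with long-term knockdown below, 44 above, 34 for long-term nontarget, 16 for short-term knockdown, 6 for short-term nontarget and 115 with opposite effects. At 10 CPM these counts were 154, 31, 25, 8, 5 and 39, and with no fold limit 694, 339, 143, 132 and 53. A fold limit of 2 gave 59 for short-term knockdown. Without each library in turn the 6 counts were 340 to 420, 67 to 90, 59 to 74, 32 to 49, 10 to 16 and 45 to 78, with the lowest for short-term nontarget without short-term knockdown replicate 2 and for opposite effects without short-term nontarget replicate 1.

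The labels do not say that a replicate number marks a shared batch or day. Same-numbered libraries deviated from their group means with correlations of −0.101 to 0.467, not all above the limit of 0.1 set for treating them as pairs, yet 10 of 12 libraries correlated best with their own number, a hint from the data of something shared. With replicates 1 and 2 alone the 6 counts were 368, 79, 66, 40, 15 and 73, and 85.4% of the 632 shared genes kept their departing group. Of the 107 named genes that were called, 97 kept the call. EPHA3, IFITM1, NLRC5, AKR1C1, ABCC2, GATA3 and TET1 missed the adjusted p limit (0.0563 to 0.105), and CDKN1A, DUSP6 and ELOVL6 the fold limit. Some interactions moved by over 1.5-fold on the linear scale. Their log2 values were −11.19 for NPPB, −9.31 for NRXN3, 6.16 for FHDC1, 7.12 for COL5A1, −2.35 for ALDH1A3, −5.86 for COL14A1, −5.50 for ITGA4, 4.08 for EPHA3 and −2.58 for AKR1C1. With a replicate block 809 genes were called, 753 of them shared. Of the 107, 91 kept the call in all fits without 1 library, and 16 lost it in at least 1, of which 9 by adjusted p. DESeq2 lost 1 and the filter at 10 CPM, which tested 68, lost ELOVL6 by fold. None of the named genes changed sign in a setting that tested it. Depth limits genes whose long-term knockdown group held few reads.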
